A study of Homo sapiens with 12 samples.

Results

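The 44 genes that encode collagen chains were followed through 12 RNA sequencing libraries of 2 uterine leiomyosarcoma (uLMS) cell lines. They were taken as the rows of the raw count table whose symbol is COL, a type number, A, and a chain number, and they are 44 of the 60649 genes in that table. SK-UT-1B was derived from a primary tumor and SK-LMS-1 from a vulvar metastasis, and both are labelled as wild type. Cells were exposed for 72 h to DMSO, to MK-0752 (a gamma secretase inhibitor, which blocks the cleavage that activates Notch receptors), or to gemcitabine and docetaxel given together with MK-0752, called the combination here. SK-LMS-1 gave 4 DMSO libraries (2-1 and 2-3, called set 2 here, and 4-1 and 4-2, called set 4), 2 MK-0752 libraries (2-2 and 2-3), and 2 combination libraries (4-1 and 4-2). SK-UT-1B gave 2 DMSO libraries (4-1 and 4-2) and 2 combination libraries (3-1 and 3-3), and no library of SK-UT-1B after MK-0752 alone was analysed. The first library number and the treatment therefore cannot be told apart within SK-UT-1B. By the study's account, each agent was given at a lower dose in the combination than alone, and the combination doses differed between the lines, so that treatment, line, and dose change together. Each line stands for 1 tumor, so that line and tumor cannot be told apart. The labels do not say whether the libraries of a group came from separate cultures, and the p-values therefore measure the spread between these libraries, which may be technical.

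Collagens are secreted proteins of the extracellular matrix in which alpha chains wind around each other into a long helix, and most types need chains from more than one gene. Fibrillar collagens form the tensile fibrils of connective tissue, FACIT collagens sit on the surface of those fibrils, type IV collagens form the sheet of basement membranes, and type VI collagen forms beaded filaments between fibrils and cells. The smooth muscle wall of the uterus is rich in fibrillar collagen, and matrix deposition is a known feature of its benign and malignant tumors.

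Total counts lay between 25250057 and 40709885 per library. A count of 3, taken as the floor of detection, corresponds to 0.0777 to 0.123 CPM (counts scaled to the size of the library) and covers counting error alone. Across 13522 genes, libraries of the same line correlated at 0.914 to 0.975 and libraries of different lines at 0.459 to 0.492, a description of libraries that share genes and depth. Smooth muscle markers summed to 751 to 963 CPM in SK-LMS-1 and 151 to 264 CPM in SK-UT-1B. Of the 11, 7 were called higher in SK-LMS-1 after DMSO, against 17.0% of all genes tested. DES, the muscle filament desmin, was called lower there, at 0 in all 8 SK-LMS-1 libraries and 1.37 to 9.76 CPM in SK-UT-1B, and MYH11, the smooth muscle myosin, was at no more than 0.150 CPM in any library. Epithelial markers summed to 178 to 278 CPM in SK-LMS-1, with KRT8 and KRT18 leading, and to 0.637 to 3.58 CPM in SK-UT-1B. Of the 8, 5 were called higher in SK-LMS-1 after DMSO (KRT8, KRT18, KRT19, KRT7, and CLDN4) and 0 lower, against 17.0% and 14.1% of all genes. The other members did not follow the keratins. CDH1 had no read in SK-LMS-1, and EPCAM was at most 1.04 CPM there. ESRP1 was at most 0.270 CPM in SK-LMS-1 and 2.49 CPM in SK-UT-1B. By the study's account, SK-UT-1B is the line with an epithelial-like shape. Fibroblast markers summed to 439 to 636 CPM and 398 to 632 CPM, but through different genes. Of the 7 markers, FAP, THY1, DCN, and LUM were called higher and PDGFRA and S100A4 lower in the DMSO libraries of SK-LMS-1. The shares over all genes tested were 17.0% higher and 14.1% lower. THY1 and DCN were at 0 in all SK-UT-1B libraries. Endothelial markers summed to 2.46 to 9.40 CPM and at most 2.01 CPM, and immune markers to at most 2.47 CPM and 0.301 CPM. The part of these markers in the collagen differences was not tested. In bulk libraries, fewer cells of a kind and less RNA per cell cannot be told apart.

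Collagen reads made up a like share of both lines, but they came from different chains. The 44 genes took 0.665% to 0.842% of all counts in the 8 SK-LMS-1 libraries and 0.684% to 0.729% in the 4 SK-UT-1B libraries, and these ranges overlap. Above the floor in at least 1 library of both lines were 29 genes, 8 were so only in SK-LMS-1, 4 only in SK-UT-1B, and 3 in neither. COL19A1, COL20A1, and COL28A1 had no count in any of the 12 libraries. COL6A5 was counted in 1 library (12 reads, SK-LMS-1 combination 4-2) and COL9A1 in 1 library (23 reads, SK-LMS-1 MK-0752 2-3). These 5 genes did not pass the filter on low counts, which left 39 for testing.

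**Figure D1:**
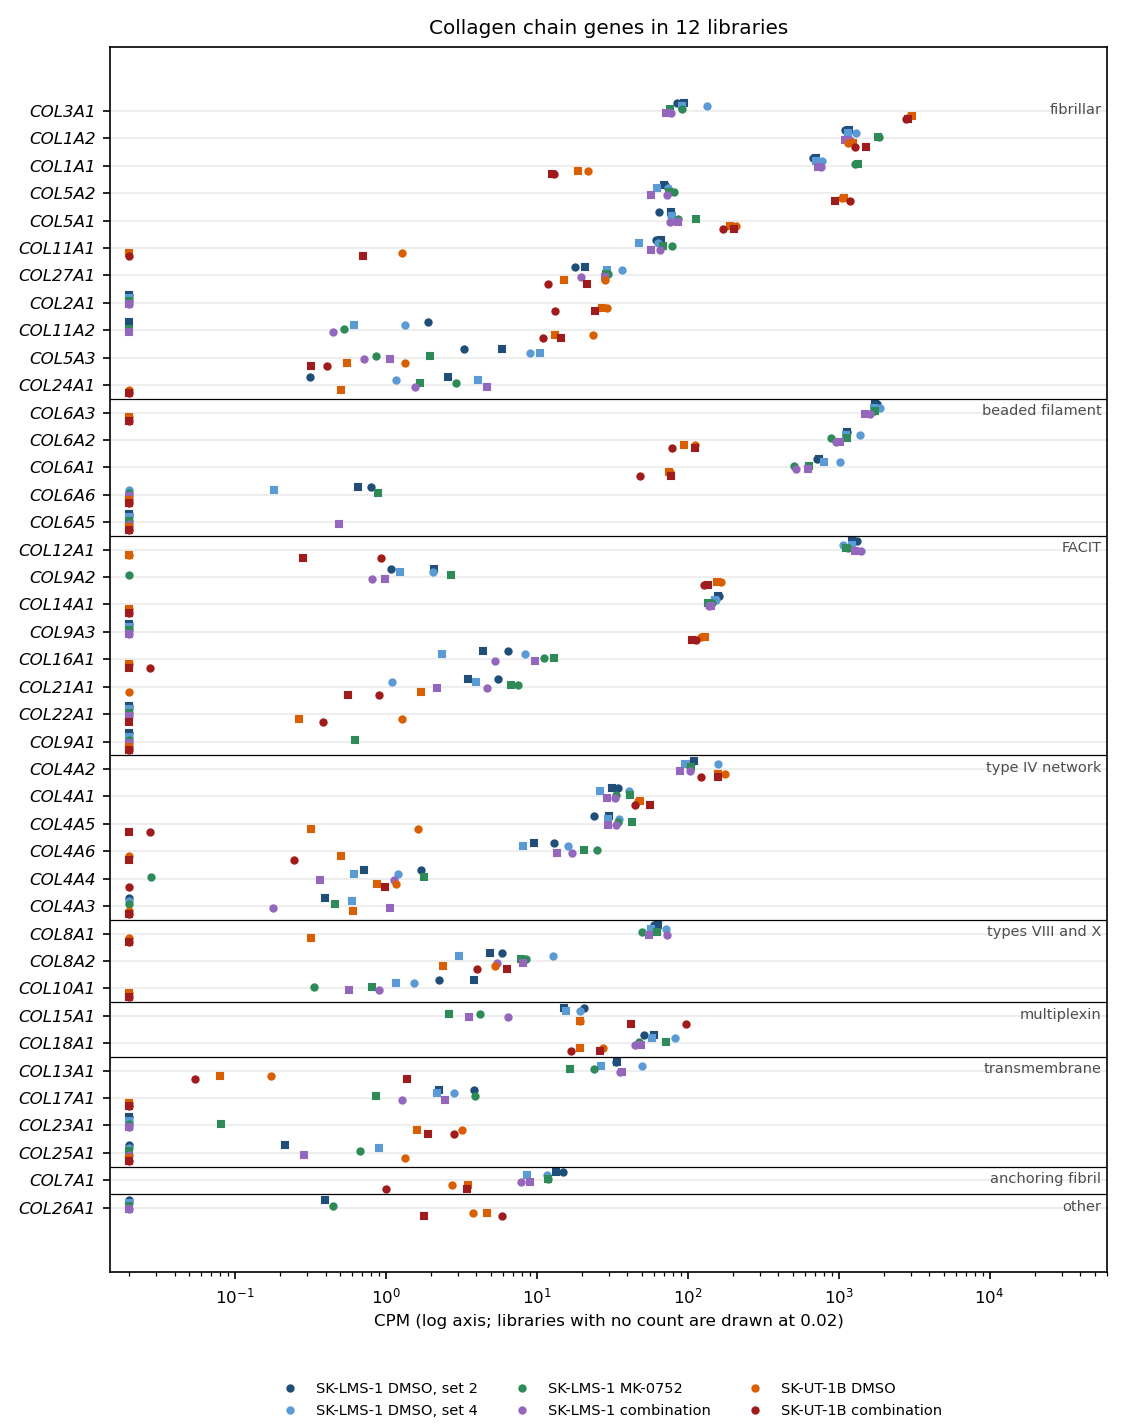
CPM on a log axis for the 41 collagen genes with a count in any library, grouped by class, with a circle and a square for the 2 libraries of each of the 6 groups and libraries without a count drawn at 0.02. COL6A3, COL12A1, and COL14A1 lie far apart between the lines in one direction and COL3A1, COL5A2, COL9A2, and COL9A3 in the other, while COL1A2 lies at nearly the same level in both.

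Levels of different genes were compared per length, as counts per kilobase of the exons in GENCODE v44, scaled to the same sum over all genes in every library (as TPM). After DMSO, the order in SK-LMS-1 was COL6A2 (938 ± 95.2, SD, n = 4), COL6A1 (620 ± 105), COL1A2 (460 ± 32.4), COL6A3 (346 ± 15.3), COL1A1 (333 ± 17.1), and COL12A1 (270 ± 25.5). The libraries of COL6A3 and COL1A1 overlapped, and those of the other neighbours in this order did not. In SK-UT-1B, the order was COL3A1 (1864 ± 93.5, n = 2), COL5A2 (611 ± 34.2), COL1A2 (463 ± 41.7), COL9A2 (161 ± 1.31), COL9A3 (109 ± 9.45), and COL6A2 (80.6 ± 7.16), with no overlap between neighbours. Only COL1A2 and COL6A2 were among the first 6 in both lines. With the length of the longest transcript in place of all exons, COL1A2 passed COL6A1 in SK-LMS-1 (605 against 596) and COL5A2 in SK-UT-1B (638 against 501). The libraries of COL6A1 in SK-LMS-1 then overlapped with those of COL1A2 and of COL6A3, and those of COL6A3 and COL1A1 did not overlap.

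By class, beaded filament chains made up 55.4% to 58.6% of the per-length collagen signal in SK-LMS-1 after DMSO and 2.86% to 4.2% in the 4 SK-UT-1B libraries. Fibrillar chains made up 28.0% to 29.6% in the former and 85.6% to 87.0% in the latter. FACIT chains took 8.16% to 12.7% in SK-LMS-1 and 6.47% to 7.69% in SK-UT-1B. Type IV chains took a small share in both lines (1.34% to 1.78% and 1.14% to 1.48%). Within SK-LMS-1, the fibrillar share was 44.4% and 41.0% in the MK-0752 libraries and 33.1% and 30.9% in the combination libraries, both above the 4 DMSO libraries, and the beaded filament share was 42.1%, 46.5%, 49.6%, and 53.1% in the same libraries, all below them. Shares sum to a whole, so that a rise of one class lowers the others.

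**Figure D2:**
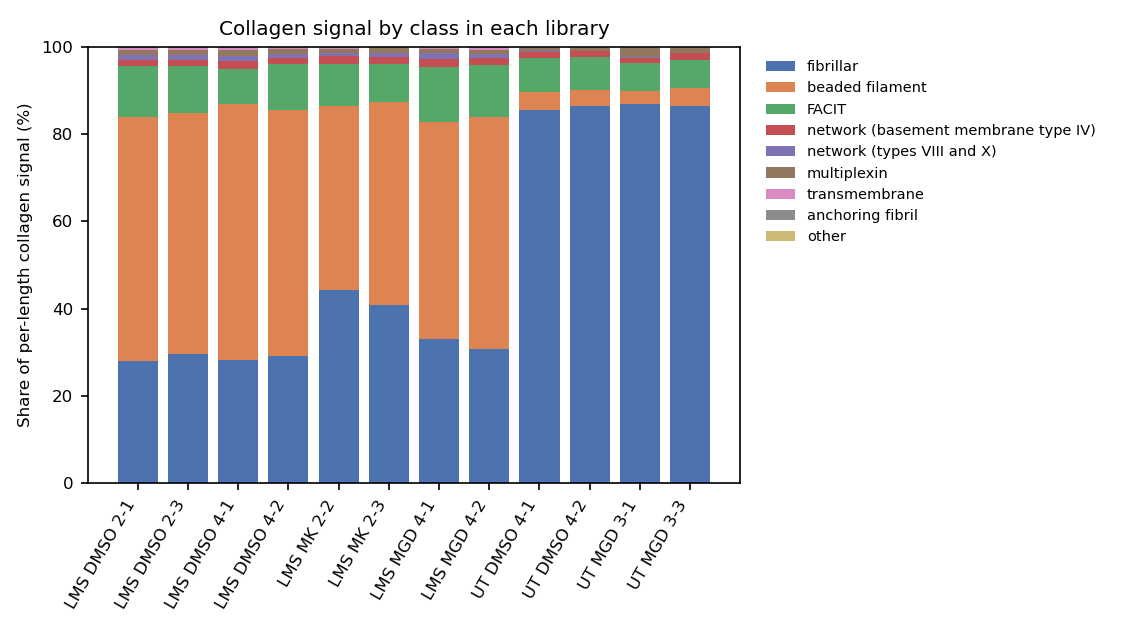
Stacked bars of the percentage of the per-length collagen signal from each class in each of the 12 libraries (LMS, SK-LMS-1; UT, SK-UT-1B; MK, MK-0752; MGD, combination). Beaded filament chains fill at least 42.1% of every SK-LMS-1 bar and at most 4.2% of every SK-UT-1B bar.

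The lines were compared after DMSO, with the 4 SK-LMS-1 libraries against the 2 of SK-UT-1B. A gene was called where the quasi-likelihood test of edgeR, adjusted by Benjamini-Hochberg over 21114 genes, gave an adjusted p under 0.05 and the log2 fold change was at least 1 in size. SK-LMS-1 was higher in 17 of the 39 tested collagen genes and lower in 8, against 17.0% and 14.1% of all genes tested. The median log2 fold change was 1.42 over the 39 genes and 0.00 over all genes tested. A gene made by 1 line alone enters the test only through that line, so that these counts describe the genes and support nothing further. After the combination, SK-LMS-1 was higher in 17 and lower in 9, against 15.6% and 9.88% of all genes, and 24 genes were called in the same direction in both comparisons, which is 96.0% of the former list and 92.3% of the latter. COL5A3 was called only after DMSO, and COL24A1 and COL15A1 only after the combination.

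Of the 11 fibrillar genes, 3 were called higher in SK-LMS-1 after DMSO (COL1A1, COL11A1, and COL5A3). Another 4 were lower (COL3A1, COL5A2, COL5A1, and COL2A1), and 4 were not called. The shares over all genes tested were 17.0% higher and 14.1% lower, and a class of 11 genes is too short a list to set against them. COL1A1 (ENSG00000108821.14, chr17:50184101-50201632, minus strand, hg38) encodes the main chain of type I collagen, the most abundant collagen of connective tissue. COL1A1 was at 676, 714, 772, and 709 CPM in the 4 DMSO libraries of SK-LMS-1 and at 21.8 and 18.8 CPM in SK-UT-1B. The SK-LMS-1 libraries were all higher, by 35.3-fold in the means (log2 fold change 5.14, SE 0.15, adjusted p = 1.28e-15). COL1A2 (ENSG00000164692.18, chr7:94394895-94431227, plus strand) encodes the partner chain of the same collagen. COL1A2 was at 1108, 1181, 1313, and 1153 CPM in SK-LMS-1 and at 1152 and 1245 CPM in SK-UT-1B. The groups overlapped, with a log2 difference of -0.01 (SE 0.11, adjusted p = 1.00).

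The chain of type III collagen, which forms thin fibrils in distensible organs such as the uterus, went the other way. COL3A1 (ENSG00000168542.16, chr2:188974373-189012746, plus strand) was at 84.8, 94.8, 134, and 91.9 CPM in the 4 DMSO libraries of SK-LMS-1 and at 2988 and 3051 CPM in SK-UT-1B. All SK-UT-1B libraries were above all SK-LMS-1 libraries, and COL3A1 was 29.8-fold higher there (log2 -4.91 for SK-LMS-1 against SK-UT-1B, SE 0.14, adjusted p = 6.17e-16). COL5A2 lies beside COL3A1 on chromosome 2, with the 3′ ends of both genes facing each other, and encodes a chain of type V collagen, which starts fibrils and limits their width. COL5A2 was at 71.2, 69.5, 74.5, and 62.9 CPM against 1056 and 1087 CPM, without overlap, and was 15.4-fold higher in SK-UT-1B (log2 -3.95, SE 0.13, adjusted p = 6.46e-15). COL5A1, its partner chain on chromosome 9, was at 64.8, 77.2, 78.1, and 78.9 CPM against 211 and 192 CPM, and was 2.69-fold higher in SK-UT-1B (log2 -1.43, SE 0.15, adjusted p = 1.46e-07).

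Among the minor and cartilage fibrillar chains, some differed between the lines and others overlapped or were not called. COL2A1, the chain of cartilage collagen, had no read in the 8 SK-LMS-1 libraries and was at 29.2 and 27.2 CPM in SK-UT-1B after DMSO and 13.3 and 24.4 CPM after the combination, at least 286-fold higher after DMSO against a floor of 3 counts per library. COL11A1, which nucleates cartilage fibrils and is made by many tumor stromas, was at 48.0 to 79.4 CPM (median 64.9) over the 8 SK-LMS-1 libraries and at 1.28, 0, 0, and 0.710 CPM in SK-UT-1B. COL11A2, its partner chain, was at no more than 1.92 CPM in SK-LMS-1 and at 23.6, 13.2, 11.1, and 14.4 CPM in SK-UT-1B. These libraries did not overlap, but the difference of COL11A2 after DMSO missed the threshold (log2 -4.24, SE 1.53, adjusted p = 0.0592). COL27A1, a fibrillar chain of cartilage and developing tissue, was at 18.1 to 36.7 CPM in SK-LMS-1 and 11.9 to 28.4 CPM in SK-UT-1B, and the lines overlapped. COL24A1 was at 0.315 to 4.68 CPM in SK-LMS-1, and in SK-UT-1B it was counted in DMSO library 4-2 alone (0.504 CPM). COL5A3, a further type V chain, was at 3.32, 5.94, 9.01, and 10.6 CPM in SK-LMS-1 and at 1.35 and 0.557 CPM in SK-UT-1B after DMSO, a call (log2 2.82, adjusted p = 0.0232) that was lost without SK-LMS-1 DMSO library 2-3 (0.068) or 4-2 (0.0599) and without either SK-UT-1B library (0.0590 without 4-1, 0.206 without 4-2).

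The beaded filament chains took the largest share of the collagen signal in the DMSO libraries of SK-LMS-1. COL6A1, COL6A2, and COL6A3 encode the chains of the common form of type VI collagen, which ties cells to the surrounding matrix and is well known from muscle. COL6A3 (ENSG00000163359.17, chr2:237324003-237414328, minus strand) was at 1794, 1741, 1872, and 1714 CPM in SK-LMS-1 after DMSO and had no read in any of the 4 SK-UT-1B libraries. Against the floor of 3 counts per library, COL6A3 was at least 19411-fold higher after DMSO (adjusted p = 5.02e-17). COL6A2 was at 1142, 1143, 1378, and 1123 CPM against 112 and 94.3 CPM, 11.6-fold higher in SK-LMS-1 (log2 3.53, SE 0.18, adjusted p = 2.66e-12). COL6A1 was at 726, 737, 1025, and 798 CPM against 76.5 and 75.6 CPM, 10.8-fold higher (log2 3.42, SE 0.21, adjusted p = 3.81e-10). SK-UT-1B thus held reads of COL6A1 and COL6A2 above the floor in every library without COL6A3. COL6A6, an alternative to COL6A3, was at no more than 0.897 CPM in SK-LMS-1 and had no read in SK-UT-1B. The 250 bases upstream of the RefSeq start of COL6A3 are shown because this gene has the largest lower bound among the collagen genes between the lines after DMSO, and they hold none of the motifs searched. The RefSeq start lies inside the gene as drawn by GENCODE v44, so that 164 of these 250 bases fall within the span given above (build GRCh38.p14, chr2:237414165-237414414, minus strand, GC 56.0%).
COL6A3 upstream: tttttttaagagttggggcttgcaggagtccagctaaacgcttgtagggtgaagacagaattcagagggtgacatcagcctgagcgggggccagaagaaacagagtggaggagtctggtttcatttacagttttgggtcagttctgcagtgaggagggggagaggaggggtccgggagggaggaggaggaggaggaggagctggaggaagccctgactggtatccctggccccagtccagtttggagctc

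FACIT genes went in both directions. Of 10, 7 were tested, and after DMSO 3 were higher in SK-LMS-1 (COL12A1, COL14A1, and COL16A1), 2 were lower (COL9A2 and COL9A3), and 2 were not called. Of all genes tested, 17.0% were higher and 14.1% lower. COL12A1 (ENSG00000111799.22, chr6:75084326-75206267, minus strand) encodes a fibril-associated collagen of tendon, muscle, and other load-bearing tissue. COL12A1 was at 1335, 1222, 1077, and 1229 CPM in SK-LMS-1 after DMSO and had no read in the SK-UT-1B DMSO libraries, at least 13259-fold higher against the floor (adjusted p = 3.02e-12). COL14A1, a related chain that regulates fibril growth, was at 162, 159, 155, and 153 CPM and had no read in SK-UT-1B, at least 1714-fold higher (adjusted p = 3.20e-15). COL16A1 was at 2.36 to 13.1 CPM over the 8 SK-LMS-1 libraries and had 1 read in the 4 SK-UT-1B libraries together. Of the chains of type IX collagen, a cartilage FACIT, 2 were counted in SK-UT-1B. COL9A2 was at 168, 157, 128, and 136 CPM in the 4 SK-UT-1B libraries and at no more than 2.72 CPM in SK-LMS-1, 99.9-fold higher in SK-UT-1B after DMSO (log2 -6.66, SE 0.92, adjusted p = 0.00108). COL9A3 was at 122, 131, 113, and 106 CPM and had no read in SK-LMS-1. COL9A1, the remaining chain of the same collagen, had no read in SK-UT-1B. COL9A3 shares 155 bases of exon with TCFL5 on the opposite strand, and the strand setting of the counts is not given in the sources used here. The 250 bases before the RefSeq start of COL12A1, of which 214 lie inside the gene as drawn by GENCODE v44, hold a GC box and 2 copies of the letters TGGGAA, which form the core of sites of CSL, the DNA-binding partner of Notch (chr6:75206054-75206303, minus strand, GC 61.2%). Capitals mark these letters on either strand.
COL12A1 upstream: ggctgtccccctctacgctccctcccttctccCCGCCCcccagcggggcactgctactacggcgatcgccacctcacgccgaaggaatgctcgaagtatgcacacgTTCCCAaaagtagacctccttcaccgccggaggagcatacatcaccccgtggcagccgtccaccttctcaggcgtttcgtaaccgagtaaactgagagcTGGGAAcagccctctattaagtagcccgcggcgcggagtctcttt

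Type IV genes lie in the genome as pairs that start close together and point away from each other. The RefSeq starts are 126 bases apart for COL4A1 and COL4A2, 379 bases for COL4A5 and COL4A6, and 418 bases for COL4A3 and COL4A4. COL4A1 and COL4A2, the chains of nearly all basement membranes, were expressed in both lines. COL4A1 was at 34.6, 31.5, 40.8, and 26.2 CPM in the 4 DMSO libraries of SK-LMS-1 and at 46.9 and 48.2 CPM in SK-UT-1B, and COL4A2 was at 108, 110, 159, and 96.6 CPM and at 176 and 160 CPM. The log2 difference was -0.52 for COL4A1 (SE 0.21, adjusted p = 0.0605) and -0.51 for COL4A2 (SE 0.17, adjusted p = 0.0243), and neither reached a size of 1. COL4A5 and COL4A6, chains of the basement membrane around smooth muscle and in some epithelia, were called higher in SK-LMS-1. COL4A5 was at 24.0 to 43.0 CPM (median 32.1) over the 8 SK-LMS-1 libraries and at 1.63, 0.318, 0.0273, and 0 CPM in SK-UT-1B. COL4A6 was at 8.19 to 25.1 CPM (median 14.9) and at no more than 0.504 CPM. COL4A3 and COL4A4, which with COL4A5 form the membrane of the kidney glomerulus, stayed at or below 1.07 CPM and 1.79 CPM in every library, and COL4A3 had no read in 6 of 12.

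The sequence between the starts is shown whole for the pair found in both lines, and in part for the pair near the floor (170 of 418 bases) and the pair found mainly in SK-LMS-1 (250 of 379). Capitals mark CCAAT and GGGCGG (the GC box) on either strand, and all sequences run along the plus strand of GRCh38.p14. The stretches are chr13:110307158-110307283 (GC 80.2%, inside the longer COL4A2 model of GENCODE v44), chr2:227164454-227164623 (GC 65.9%, the bases between both genes in GENCODE v44), and chrX:108439588-108439837 (GC 51.2%).
COL4A1 to COL4A2: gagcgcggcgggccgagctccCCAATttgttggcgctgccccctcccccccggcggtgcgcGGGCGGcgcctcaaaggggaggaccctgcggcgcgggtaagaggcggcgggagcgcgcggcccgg
COL4A4 to COL4A3: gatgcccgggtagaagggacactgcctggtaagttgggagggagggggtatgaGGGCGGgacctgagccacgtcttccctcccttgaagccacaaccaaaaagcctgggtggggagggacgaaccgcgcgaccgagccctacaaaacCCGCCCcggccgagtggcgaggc
COL4A5 upstream: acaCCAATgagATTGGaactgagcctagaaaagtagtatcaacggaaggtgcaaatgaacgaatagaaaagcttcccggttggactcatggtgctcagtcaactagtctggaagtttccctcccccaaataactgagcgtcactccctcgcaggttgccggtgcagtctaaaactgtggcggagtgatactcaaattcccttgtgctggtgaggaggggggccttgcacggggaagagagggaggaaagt
The stretch of COL4A1 and COL4A2 holds 1 CCAAT box and 1 GC box, that of COL4A4 and COL4A3 holds 2 GC boxes and no CCAAT box, and that of COL4A5 holds 2 CCAAT boxes and no GC box. Among 35116 RefSeq windows of 250 bases, 32% hold the CCAAT box, 42.6% the GC box, 20.8% the CSL core, and 10.7% the TATA box (letters TATAAA), each on either strand and with overlaps between motifs kept. Of the 44 collagen genes, 32 matched, some with several starts, and of their 44 windows 27.3% hold the CCAAT box, 54.5% the GC box, 13.6% the CSL core, and 18.2% the TATA box. COL1A1, COL1A2, COL2A1, COL3A1, COL5A2, COL6A1, COL6A5, COL8A1, COL9A3, COL14A1, COL20A1, and COL22A1 did not match. A match of letters is a description and not a binding site.

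Among the remaining classes, COL8A1, a short-chain collagen of vessel walls and smooth muscle, was at 49.7 to 72.6 CPM (median 61.4) over the SK-LMS-1 libraries and had 12 reads in SK-UT-1B DMSO library 4-2 and none in the other 3. COL8A2 was at 3.08 to 12.9 CPM and 2.41 to 6.39 CPM and was not called. COL10A1, the collagen of growth plate cartilage, was at 0.337 to 3.88 CPM in SK-LMS-1 and had no read in SK-UT-1B. The transmembrane chain COL13A1, found at cell adhesions and at the neuromuscular junction, was at 16.7 to 50.2 CPM (median 33.6) in SK-LMS-1 and at no more than 1.38 CPM in SK-UT-1B. COL17A1, a hemidesmosome protein of epithelia, was at 0.870 to 3.90 CPM and had no read in SK-UT-1B. COL23A1, another transmembrane chain, was at 1.62 to 3.19 CPM in SK-UT-1B and had 3 reads in 1 SK-LMS-1 library. COL7A1, which forms the fibrils that anchor skin to its basement membrane, was at 7.90 to 15.02 CPM and 1.01 to 3.53 CPM, without overlap between the lines. COL18A1, a basement membrane collagen and the source of endostatin, was at 44.7 to 82.9 CPM and 17.0 to 27.4 CPM and was higher after DMSO in SK-LMS-1 (log2 1.42, SE 0.25, adjusted p = 1.19e-04), and it shares 1563 bases of exon with SLC19A1 on the opposite strand. COL26A1 was at 1.81 to 5.88 CPM in SK-UT-1B and was counted in 2 SK-LMS-1 libraries, at 0.399 and 0.449 CPM. COL21A1 was at 1.095 to 7.54 CPM in SK-LMS-1 and at most 1.72 CPM in SK-UT-1B, COL22A1 was at most 1.28 CPM and found only in SK-UT-1B, and COL25A1 was at most 1.35 CPM in either line.

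Chains that assemble together were compared as ratios of their per-length levels, library by library and with no test, since both values come from the same library. Type I collagen is usually built with more of the COL1A1 chain than of COL1A2. The ratio of COL1A1 to COL1A2 was 0.705 to 0.738 in the 4 SK-LMS-1 DMSO libraries, 0.0228 and 0.0181 in the SK-UT-1B DMSO libraries, and 0.0123 and 0.00991 after the combination in SK-UT-1B. Reads of COL1A2 per length thus exceeded those of COL1A1 by 43.9-fold to 101-fold in SK-UT-1B, and by 1.14-fold to 1.42-fold in SK-LMS-1. The ratio of COL5A1 to COL5A2 was 0.597 to 0.990 in SK-LMS-1 and 0.0955 to 0.141 in SK-UT-1B. By contrast, COL4A1 to COL4A2 was 0.338 to 0.517 and 0.351 to 0.484, and COL6A1 to COL6A2 was 0.659 ± 0.0502 (SD, n = 4) and 0.714 ± 0.0827 (n = 2) after DMSO, with overlap between the lines in both ratios. In SK-UT-1B, COL9A2 to COL9A3 was 1.30 to 1.58. The size of a ratio depends on the lengths chosen, and with the longest transcripts COL1A1 to COL1A2 was 0.612 in SK-LMS-1 and 0.0173 in SK-UT-1B after DMSO. Protein was not measured in these files.

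**Figure D3:**
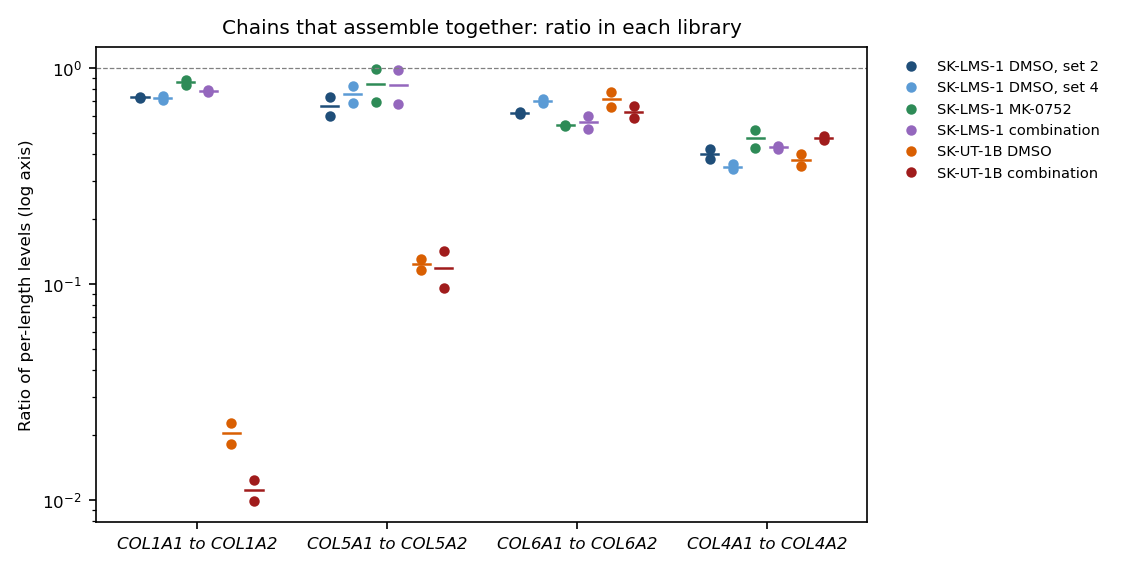
Ratio of per-length levels for 4 pairs of chains on a log axis, with 1 point per library and a bar at the mean of each of the 6 groups. The SK-UT-1B points lie far below the SK-LMS-1 points for COL1A1 to COL1A2 and COL5A1 to COL5A2. They overlap with the SK-LMS-1 points for COL6A1 to COL6A2 and COL4A1 to COL4A2.

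The genes that modify, fold, trim, crosslink, and bind collagen were read from lists of 49 genes, of which 47 were tested. After DMSO, 19 were higher in SK-LMS-1 and 5 were lower, against 17.0% and 14.1% of all genes tested. Of 5 crosslinking enzymes, LOX, LOXL1, and LOXL2 were higher in SK-LMS-1 and none was lower, with a list median of 2.12. LOX, the lysyl oxidase that starts crosslinks in fibrils, was at 243 to 465 CPM in SK-LMS-1 and had no read in SK-UT-1B. Of 7 collagen receptors, 6 were higher and none was lower (median 2.80), including ITGA2, a collagen-binding integrin chain, at 168 to 254 CPM against at most 0.465 CPM. DDR2, a receptor kinase for fibrillar collagen, was the one not called, at 344 to 477 CPM and 319 to 664 CPM. Of 6 collagen-binding matrix proteins, DCN, BGN, LUM, and FN1 were higher (median 8.75). Of 12 hydroxylation genes, 3 were higher (P4HA3, P3H2, and PLOD2) and 2 lower (P3H1 and P3H4), with a median of 0.08. PLOD2, which hydroxylates the lysines used for stable crosslinks, was at 413 to 585 CPM against 20.2 to 51.9 CPM. Of 7 chaperone and secretion genes, only SERPINH1 was called, and it was lower in SK-LMS-1 (180 to 243 CPM against 826 to 979 CPM). SERPINH1 encodes the procollagen chaperone HSP47. Of 10 propeptide processing genes, 8 were tested, and ADAMTS14, TLL1, and PCOLCE were higher while ADAMTS3 and TLL2 were lower (median -0.34). Neither of the 2 glycosylation genes was called.

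Few genes of any kind were called after treatment, and few collagen genes were among them. In SK-LMS-1, MK-0752 was compared with DMSO set 2, which shares the first number of the library, and 1 of 39 collagen genes was lower and 0 were higher, against 0.194% and 0.0568% of all genes. An unadjusted p under 0.05 was reached by 4 of the 39, and by 1354 of all 21114 genes. DESeq2 called the same 1 lower and 0 higher, where it called 86 of all genes lower and 45 higher. The gene was COL15A1 (ENSG00000204291.11, chr9:98943179-99070792, plus strand), which encodes a collagen that links basement membranes to the fibrils beneath, among others around muscle cells. COL15A1 was at 20.6 and 15.3 CPM in DMSO set 2, at 19.5 and 15.7 CPM in DMSO set 4, and at 4.24 and 2.64 CPM after MK-0752. Both MK-0752 libraries were below all 4 DMSO libraries, and the mean was 5.22-fold lower than in set 2 (log2 -2.38, SE 0.41, adjusted p = 0.0106).

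Both type I chains were higher after MK-0752 but stayed under the fold threshold. COL1A1 was at 676 and 714 CPM in DMSO set 2 and at 1278 and 1348 CPM after MK-0752, without overlap, and the change was 1.89-fold (log2 0.92, SE 0.13, adjusted p = 0.00210). COL1A2 was at 1108 and 1181 CPM and at 1840 and 1837 CPM, a change of 1.61-fold (log2 0.68, SE 0.13, adjusted p = 0.0203, and 0.191 without DMSO library 2-1). Both MK-0752 libraries also lay above both set 4 DMSO libraries for each gene. COL5A1, a further fibrillar chain, was at 64.8 and 77.2 CPM and at 86.9 and 114 CPM, which did not pass (log2 0.50, SE 0.18, adjusted p = 0.472). COL3A1 was at 84.8 and 94.8 CPM and at 91.6 and 76.6 CPM, with overlap. COL6A1 was at 726 and 737 CPM and at 504 and 638 CPM (log2 -0.36, adjusted p = 0.806), and COL6A3 changed by -0.03 (SE 0.13).

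In SK-LMS-1 after the combination, compared with DMSO set 4, no collagen gene was called in either direction, where 0.0142% of all genes were higher and 0.00947% lower. An unadjusted p under 0.05 was reached by 5 of the 39, and by 914 of all 21114 genes. DESeq2 called 2 lower, COL15A1 and COL5A3, where it called 5 of all genes lower and 31 higher. COL15A1 was at 19.5 and 15.7 CPM in set 4 and at 6.49 and 3.57 CPM after the combination, without overlap (log2 -1.80, SE 0.40, adjusted p = 0.340). COL5A3 was at 9.01 and 10.6 CPM and at 0.721 and 1.07 CPM (log2 -3.45, SE 1.05, adjusted p = 0.907), and in the MK-0752 libraries at 0.869 and 1.98 CPM against 3.32 and 5.94 CPM in set 2. All 4 treated SK-LMS-1 libraries were thus below all 4 DMSO libraries for COL15A1 and for COL5A3. COL1A1 was at 768 and 726 CPM after the combination and at 772 and 709 CPM in set 4, with overlap (log2 0.01, SE 0.13). The difference between the MK-0752 effect and the combination effect on COL1A1 at their different doses missed the threshold (log2 0.91, SE 0.19, adjusted p = 0.135), as did that of COL1A2 (log2 0.78, SE 0.18, adjusted p = 0.298). For COL15A1 the difference was -0.58 (SE 0.56, adjusted p = 1.00). Over all genes, 0.00474% were higher and 0.0332% lower in this difference, which was added after the data were seen, and 0 collagen genes were called. An unadjusted p under 0.05 was reached there by 4 of the 39 collagen genes and by 1094 of all genes. DESeq2 called 0 collagen genes in this difference, and 11 of all genes higher and 29 lower.

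In SK-UT-1B, the combination raised 2 collagen genes and lowered 1, against 0.393% and 0.166% of all genes. COL15A1 was at 19.5 and 19.3 CPM after DMSO and at 97.7 and 42.0 CPM after the combination. Both treated libraries were higher but differed between themselves, and the mean change was 3.60-fold (log2 1.85, SE 0.40, adjusted p = 0.0353). The call was lost without combination library 3-1 (log2 1.08, adjusted p = 0.411) and with a filter at a mean of 50 counts (log2 1.83, adjusted p = 0.0691). COL12A1 had no read in the DMSO libraries and 34 and 8 reads after the combination, at least 6.61-fold higher against the floor (adjusted p = 0.00476). COL4A5 fell from 47 and 12 reads to 1 and 0 (adjusted p = 0.0100), a change whose fitted size rests on the added prior count. With only the 4 SK-UT-1B libraries in the fit, edgeR called 0 of 16112 genes (1245 at an unadjusted p under 0.05), where COL15A1 had an adjusted p of 0.555 and COL4A5 one of 0.689, and COL12A1 did not pass the filter. COL1A1 was at 21.8 and 18.8 CPM and at 13.1 and 12.6 CPM, without overlap, a change of -0.66 that passed the adjusted p (SE 0.14, adjusted p = 0.0293) and not the fold threshold. That adjusted p was 0.662 with the SK-UT-1B libraries alone and 0.168 without DMSO library 4-1. COL3A1 (2988 and 3051 CPM, then 2815 and 2882 CPM) changed by -0.08 (SE 0.16), and COL5A2 by -0.01 (SE 0.16).

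The 250 bases before the RefSeq start of COL15A1 are shown because this gene was called after MK-0752 in SK-LMS-1 and after the combination in SK-UT-1B, and all of them lie inside the gene as drawn by GENCODE v44 (chr9:98943657-98943906, plus strand of GRCh38.p14, GC 76.8%, 38 CpG). The capitals mark its 1 GC box, and no other motif searched is in this window. COL15A1 shares 137 bases of exon with a long noncoding RNA gene on the opposite strand, ENSG00000270412.
COL15A1 upstream: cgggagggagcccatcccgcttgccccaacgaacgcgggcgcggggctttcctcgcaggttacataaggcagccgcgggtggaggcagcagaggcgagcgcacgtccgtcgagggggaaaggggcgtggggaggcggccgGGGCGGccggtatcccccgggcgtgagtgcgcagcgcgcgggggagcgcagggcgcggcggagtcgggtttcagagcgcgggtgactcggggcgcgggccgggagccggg

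**Figure D4:**
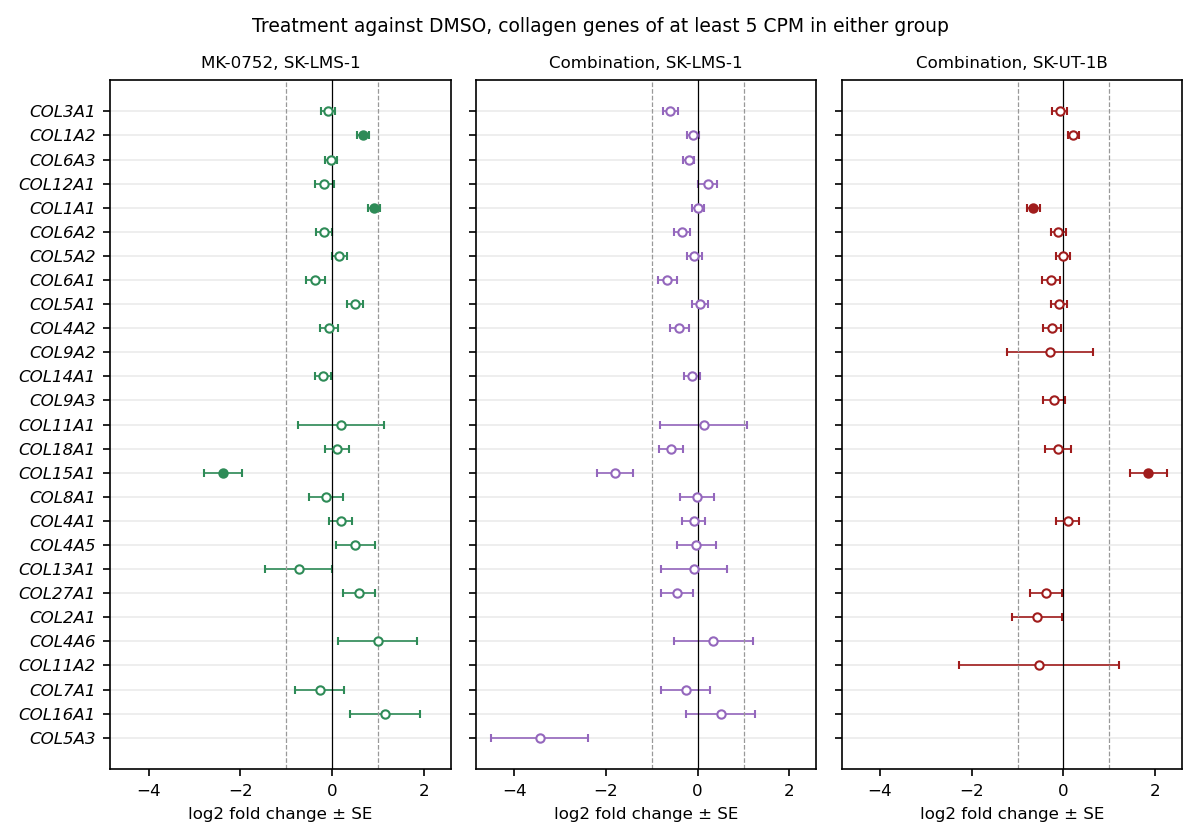
Log2 fold change with its SE for each treatment against its DMSO libraries, for collagen genes with a mean of at least 5 CPM in either group of that comparison, with dashed lines at a change of 1 in size. Filled points have an adjusted p under 0.05 by edgeR and are COL15A1, COL1A1, and COL1A2 after MK-0752 and COL15A1 and COL1A1 after the combination in SK-UT-1B.

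The combination effects of the lines were compared directly. The effect in SK-UT-1B was higher than in SK-LMS-1 for 2 collagen genes and lower for 0, against 0.147% and 0.0853% of all genes. An unadjusted p under 0.05 was reached by 7 of the 39, and by 1619 of all 21114 genes. DESeq2 called the same 2 higher and COL4A5 lower, where it called 83 of all genes higher and 65 lower. COL15A1 differed by 3.65 on the log2 scale (SE 0.56, adjusted p = 0.00427, and 2.93 without SK-UT-1B combination library 3-1). The change was called in SK-UT-1B and, at -1.80, was not called in SK-LMS-1 with the main settings. DESeq2, a fit without a filter, and a fit with a replicate block each called COL15A1 lower in SK-LMS-1. COL12A1 differed by 7.15 (SE 1.12, adjusted p = 0.0199), which rests on the 34 and 8 reads in SK-UT-1B, since it was at 1077 and 1229 CPM in set 4 and at 1403 and 1285 CPM after the combination in SK-LMS-1. The difference of COL4A5 was -5.60 (SE 1.11, adjusted p = 0.0506) and that of COL1A1 -0.67 (SE 0.19, adjusted p = 0.301). COL15A1 was level between the lines after DMSO (log2 -0.13, SE 0.33, adjusted p = 0.83) and 13.9-fold higher in SK-UT-1B after the combination (log2 -3.79, SE 0.43, adjusted p = 7.10e-07), or -3.09 on the log2 scale without SK-UT-1B library 3-1.

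**Figure D5:**
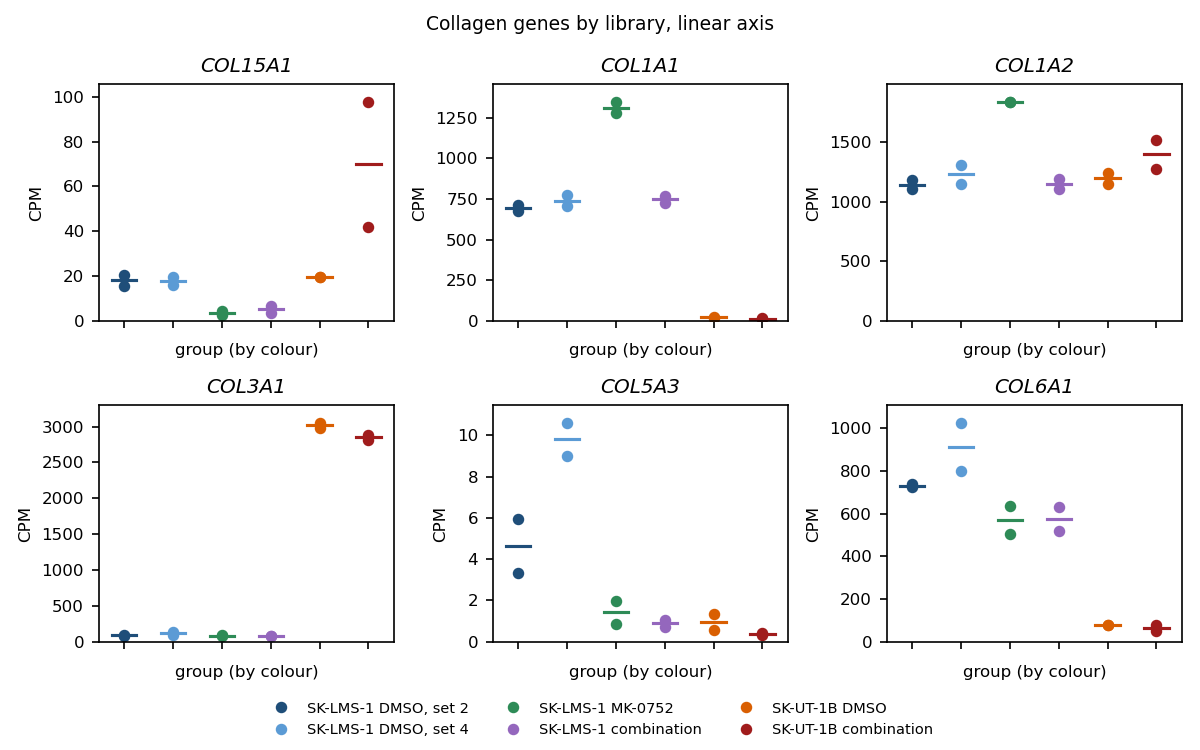
CPM of 6 collagen genes on linear axes from 0, with 1 point per library and a bar at the mean of each of the 6 groups. COL15A1 lies between 2.64 and 6.49 CPM in the 4 treated SK-LMS-1 libraries and at 42.0 and 97.7 CPM in SK-UT-1B after the combination, while COL1A1 and COL1A2 stand highest in the MK-0752 libraries.

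The DMSO sets of SK-LMS-1, which received no drug, were compared as background. No collagen gene and no other gene was called between set 4 and set 2 (0 higher and 0 lower), with 1197 genes at an unadjusted p under 0.05 and 33 genes called by DESeq2. Of the collagen genes, COL3A1 and COL27A1 had such a p, and DESeq2 called 0. COL27A1 was at 18.1 and 21.1 CPM in set 2 and at 36.7 and 29.2 CPM in set 4 (log2 0.75, SE 0.35, adjusted p = 0.794). COL5A3 was at 3.32 and 5.94 CPM and at 9.01 and 10.6 CPM in these sets. Low collagen genes could be absent in one library of a group and present in the other, as COL6A6, COL9A1, COL9A2, and COL25A1 were in the MK-0752 group, where one library had at least 20 reads and the other none. The same held for COL4A3, COL11A1, COL21A1, and COL25A1 in SK-UT-1B after DMSO, and for COL4A4 and COL11A1 after the combination there. In the DMSO sets of SK-LMS-1 it held for COL11A2 (set 2) and for COL4A3 and COL25A1 (set 4). Of the pathway genes, 2 rose and 2 fell in SK-UT-1B after the combination, against 0.393% and 0.166% of all genes, and none was called with the SK-UT-1B libraries alone. P3H2, a prolyl hydroxylase that acts mainly on basement membrane collagen, went from no read to 0.328 and 1.78 CPM, and ITGA2 from at most 0.104 CPM to 0.319 and 0.465 CPM. ITGA1, the integrin chain that binds type IV collagen, went from 5.86 and 4.22 CPM to between 1.2 and 1.42 CPM (log2 -1.95, SE 0.32, adjusted p = 0.00403), and ITGA10 from 0.504 and 1.63 CPM to no read. P4HB (log2 -0.67, adjusted p = 0.0344) and PLOD2 (log2 0.86, adjusted p = 0.0384) passed the adjusted p there but not the fold threshold. In SK-LMS-1, edgeR called 0 of the 47 after MK-0752 and 0 after the combination, with 6 at an unadjusted p under 0.05 in each. Of all 21114 genes, 1354 and 914 had such a p in these comparisons. LOX was at 243 and 248 CPM after MK-0752 and at 352 to 465 CPM in the 4 DMSO libraries, without overlap, and passed the adjusted p but not the fold threshold (log2 -0.90, SE 0.15, adjusted p = 0.0106).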

How the data were processed

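Total RNA of 12 libraries (stranded kit, ribosomal RNA depleted) was sequenced. Per the submitters' processing notes, the tools were Trim Galore 0.3.7, STAR 2.7.9a, and hg38. The authors deposited unnormalized whole-number counts per gene under versioned Ensembl identifiers, of which 60507 have a model in GENCODE v44, the annotation used here. Annotation, strand setting, and duplicate removal of the counts are not given in the sources used here. Total counts set the precision, and floors and bounds cover counting error only.

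Counts were tested with edgeR 4.0.16 (TMM, filterByExpr, robust quasi-likelihood fit of 6 groups of 2 over all 12 libraries, Benjamini-Hochberg adjustment over 21114 genes) in R 4.3.3, after a check on simulated data. CPM used TMM library sizes. Alternatives were DESeq2 1.42.0 (the tool of the study), its size factors, other filters (no filter, or a mean of at least 50 counts), only the libraries of a comparison, 5 groups, a replicate block, and leaving out each library. Collagen classes are textbook classes. The members, the lists of 49 pathway genes and of markers, and the tests were chosen with earlier results of these data known. By rule, values were given for genes called or at 10 CPM in a group, for at most 30 genes; genes named beyond it, and fold changes of genes that were not called, were chosen after their values were seen. Upstream sequences are from RefSeq (GRCh38.p14).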

Additional observations from a re-analysis of the deposited data

Results flagged for a closer look

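In a group of 4 DMSO libraries of SK-LMS-1, 1 library lay apart from the other 3 for 3 of 35 collagen genes. Chance gives about 1 in 20, but COL26A1 would be flagged at any count, so that the 3 cannot be set against that share. COL5A1 was lowest in library 2-1, at 64.8 CPM against 77.2 to 78.9 CPM. COL6A2 was highest in library 4-1, at 1378 CPM against 1123 to 1143 CPM. COL26A1 was found in library 2-3 alone, at 0.399 CPM, which is 11 reads, and with 0 in the other 3 libraries any count stands apart in this way.

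The combination effect differed between the lines for COL15A1 by 3.65 (log2, SK-UT-1B minus SK-LMS-1, edgeR adjusted p = 0.00427) and for COL12A1 by 7.15 (adjusted p = 0.0199). For COL15A1, the difference lay between 2.93 and 4.13 and the adjusted p between 1.30e-11 and 0.0456 in 15 alternatives. For COL12A1, the adjusted p rose to 0.187 when the fit held the DMSO set 4, SK-UT-1B, and SK-LMS-1 combination libraries alone. COL12A1 entered this test only through its reads in SK-LMS-1.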

How the results depend on the processing

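For the genes called between the lines, 314 recomputed values after DMSO kept their direction and call and 8 lost the call, and 270 and 13 did so after the combination, and no value changed direction. Leaving out 1 library at a time gave 15 to 18 genes higher and 9 lower after DMSO, and 14 to 17 higher and 9 to 10 lower after the combination. The treatment counts are small and moved more. In SK-UT-1B, the 2 genes higher after the combination became 1 with a mean of at least 50 counts (COL15A1 was lost) and 0 with the 4 libraries fitted alone, and 2 to 4 when 1 library was left out. The 1 gene lower became 2 by DESeq2 and 2 without a filter (COL8A1 joined COL4A5), 0 with the 4 libraries alone, and 1 to 3 when 1 library was left out. For MK-0752, leaving out 1 library gave 1 to 2 genes lower. For the combination in SK-LMS-1, the 0 genes lower became 2 by DESeq2, 1 without a filter, and 0 to 1 when 1 library was left out. For the difference between the lines, the 2 genes higher became 1 with its own libraries alone and 2 to 4 when 1 library was left out, and the 0 lower became 1 by DESeq2, 2 without a filter, 1 with all 4 SK-LMS-1 DMSO libraries as 1 group, and 1 to 3 when 1 library was left out. Between the DMSO sets, 0 to 1 gene was higher, and between both treatment effects in SK-LMS-1, 0 to 1 was lower. The cause was not tested.

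Deviations of libraries with the same number were correlated over 13522 genes. For 4-1 and 4-2 of the SK-LMS-1 combination and DMSO groups, r was 0.00243. For 2-3 of the MK-0752 and DMSO groups, it was 0.0291. For 4-1 and 4-2 of SK-UT-1B DMSO, it was -0.011 with the SK-LMS-1 DMSO group and -0.00105 with the combination group. Each r rests on a single difference between libraries per group, and cannot show whether libraries with the same number shared a culture. The main fit used no pairing. Other shared final digits were not checked. The replicate block called 1 gene lower for the combination in SK-LMS-1 (COL15A1) and 1 lower in the difference (COL4A5), and lost COL10A1 and COL5A3 between the lines after DMSO and COL23A1 and COL10A1 after the combination.

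With the length of the longest transcript, the ratio of COL1A1 to COL1A2 became 0.612 in SK-LMS-1 after DMSO. COL4A1 to COL4A2 became 0.280 in SK-LMS-1 and 0.280 in SK-UT-1B, COL5A1 to COL5A2 0.874 and 0.152, and COL6A1 to COL6A2 0.560 and 0.607. After DMSO in SK-LMS-1, COL6A3 to COL6A2 went from 0.371 to 0.489 and COL8A1 to COL8A2 from 5.85 to 9.64. COL9A2 to COL9A3 went from 1.48 to 1.11 in SK-UT-1B after DMSO. Genes below 0.0777 to 0.123 CPM could not be told from absent, and groups of 2 limit every treatment comparison.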
